A study of Mus musculus with 75 samples.

Results

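Calcium handling in skeletal muscle was followed through 10 genes: the voltage sensor Cacna1s and the release channel Ryr1, the counter-ion channels Tmem38a and Tmem38b, the store proteins Casq1 and Casq2, the cytosolic buffer Pvalb, the reuptake pumps Atp2a1 and Atp2a2, and the pump regulator Sln. They were chosen by symbol, and all 10 were found among the 13856 genes of the expression table. RNA had been sequenced from the gastrocnemius, a calf muscle made mainly of fast fibres, in BALB/c mice of both sexes. Tumour hosts carried C26 cells, a mouse colon carcinoma line, injected on both sides, and tumour-free mice received PBS. From day 12 the tumour hosts were given saline, 5-fluorouracil, paclitaxel or cisplatin, dosed at 75% of the maximum tolerated amount over 2 cycles of 2 injections per week, and muscle was taken at day 25. The tumour-free mice received saline, so every drug group also carried the tumour and no group received a drug without it.

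The comparisons rested on 73 libraries in 10 groups. In females these were 7 PBS saline, 7 C26 saline, 8 C26 5-fluorouracil, 7 C26 paclitaxel and 6 C26 cisplatin libraries. In males they were 8, 8, 8, 6 and 8. A female library whose title names saline and whose treatment label names 5-fluorouracil entered no group, and female PBS saline replicate 8 was not analysed here. The labels give all libraries the same batch value. Estimated counts, recovered from each library's lowest values, ranged from 11.4 M to 40.5 M per library, with a median of 22.5 M. All 14 muscle fibre markers checked were measured, at mean log2 values of 10.6 to 15.5. A library's GC slope is how steeply its expression deviates from the mean of all libraries as transcript GC content rises by 1 standard deviation. It was fitted together with log2 transcript length, over the 10637 genes with known GC content and a mean log2 of at least 1. It was above 0.1 log2 units in 19 libraries. These included 4 of the 6 libraries of the male paclitaxel arm and 4 of the 8 of male 5-fluorouracil. Male PBS saline and male cisplatin held 2 of 8 each, but male C26 saline held 0 of 8. In females they were 2 PBS saline, 1 C26 saline, 2 5-fluorouracil, 2 paclitaxel and 0 cisplatin libraries. The share of mitochondrially encoded RNA had a median of 2.58% in the 19 libraries and 10.5% in the other 54. Male C26 saline replicate 4 stood apart from its group, and where leaving it out changed a call of 1 of the 10 genes, both values are given. For differences between 2 genes within a library, only the ranges over all libraries left out are given.

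A muscle action potential moves the voltage sensor in the transverse tubule, which opens the ryanodine receptor of the sarcoplasmic reticulum and lets stored calcium into the cytosol. Calsequestrins hold calcium inside the store, the TRIC channels Tmem38a and Tmem38b carry counter-ions across its membrane, and parvalbumin binds cytosolic calcium in fast fibres as they relax. The SERCA pumps return calcium to the store, with Atp2a1 the form of fast fibres and Atp2a2 that of slow fibres and heart, and sarcolipin, encoded by Sln, is a small membrane peptide that lowers the efficiency of the pump.

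Promoter windows were available for 7 of the 10 genes in the RefSeq table (GRCm38.p6). Those of Casq1, Cacna1s and Pvalb are shown because these genes were lower in tumour-bearing males, and that of Atp2a1 because it was not called there. Each is the 250 bases before the annotated start, 5′ to 3′ on the gene's strand, with capitals marking a match to CAGCTG, an E-box of the kind that myogenic factors bind, or to the MEF2 motif. Pvalb has 2 annotated starts, and the window before the more upstream one is printed.
Casq1, chr1:172219896-172220145, minus strand: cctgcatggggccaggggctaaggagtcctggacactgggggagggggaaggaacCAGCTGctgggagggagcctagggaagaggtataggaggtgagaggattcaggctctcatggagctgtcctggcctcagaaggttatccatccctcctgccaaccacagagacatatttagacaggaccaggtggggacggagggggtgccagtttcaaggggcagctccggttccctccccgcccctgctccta
Cacna1s, chr1:136052561-136052810, plus strand: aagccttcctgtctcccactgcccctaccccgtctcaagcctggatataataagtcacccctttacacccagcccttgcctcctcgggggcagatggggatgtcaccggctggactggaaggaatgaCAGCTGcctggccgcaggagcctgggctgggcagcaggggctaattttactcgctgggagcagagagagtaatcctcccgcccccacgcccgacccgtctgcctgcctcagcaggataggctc
Pvalb, chr15:78206401-78206650, minus strand: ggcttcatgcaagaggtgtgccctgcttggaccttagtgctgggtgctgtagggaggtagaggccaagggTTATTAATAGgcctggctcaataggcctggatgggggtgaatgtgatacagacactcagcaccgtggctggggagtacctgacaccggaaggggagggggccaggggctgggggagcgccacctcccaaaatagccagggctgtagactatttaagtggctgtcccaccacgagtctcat
Atp2a1, chr7:126463074-126463323, minus strand: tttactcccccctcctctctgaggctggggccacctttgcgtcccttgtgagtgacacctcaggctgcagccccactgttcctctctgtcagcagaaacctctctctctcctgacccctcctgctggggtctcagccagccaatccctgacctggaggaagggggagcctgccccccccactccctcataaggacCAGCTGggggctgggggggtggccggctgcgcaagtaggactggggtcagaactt
CAGCTG lay 195 to 190 bases before the start in Casq1, 123 to 118 in Cacna1s and 55 to 50 in Atp2a1. A MEF2 match lay 180 to 171 bases before the start in Pvalb. On either strand, CAGCTG occurred in 13.0% of all 32851 windows of this length and the MEF2 motif in 2.92%. The E-box was present in the windows of Casq1 and Cacna1s and in that of Atp2a1, but not in that of Pvalb. Casq2, Ryr1 and Tmem38a, whose windows are not printed, were also not called with the tumour in males. Casq2 had a MEF2 match 69 to 60 bases before the start, and Ryr1 and Tmem38a had neither motif.

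In the healthy muscle of both sexes the fast-fibre forms led the group. Per kilobase of transcript, the mean log2 level in male PBS muscle was 13.58 for Atp2a1, 12.91 for Pvalb and 10.93 for Casq1. Tmem38a followed at 9.46, Ryr1 at 7.90 and Cacna1s at 7.29, ahead of Atp2a2 at 5.99, Tmem38b at 4.30, Casq2 at 2.87 and Sln at -0.86. This order held between each pair of neighbours in 8 of 8 male libraries. Female PBS muscle had the same order of means, but neighbouring levels did not separate everywhere: Ryr1 exceeded Cacna1s by 0.13 ± 0.17 (SD, n = 7; higher in 6 of 7 libraries), Cacna1s exceeded Atp2a2 by 0.83 ± 0.74 (higher in 6 of 7), and Tmem38b exceeded Casq2 by 0.53 ± 0.83 (higher in 5 of 7). Sln was scarce in this muscle, with a median linear value (back-transformed from log2, close to CPM, not per length) of 0.759 in male and 3.79 in female PBS libraries. Of the 10 genes, Sln alone was called between the sexes in tumour-free mice, where 1.19% of all genes were lower in males and 2.20% higher. It was lower in males (log2 change -2.27 ± 0.55 SE, adjusted p = 0.00701), and all 8 male values lay below every female value. Without the libraries of high GC slope this difference was -1.87 (adjusted p = 0.105).

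All values below are deposited log2 expression, changes are differences of group means ± standard error, and a call means an adjusted p below 0.05 (Benjamini-Hochberg over all 13856 genes, from 1 limma fit of the 10 groups). In males, the tumour was accompanied by lower Casq1, Pvalb and Cacna1s and higher Tmem38b and Sln, so that 3 of 10 genes fell and 2 rose, where 13.0% of all genes were called lower and 13.1% higher. Each drug arm was compared with the same C26 saline libraries that entered that contrast, so these changes are not independent of it. Against C26 saline, male 5-fluorouracil muscle had 5 genes higher and 1 lower (11.3% and 12.0% of all genes), male paclitaxel 5 higher and 1 lower (13.5% and 18.5%), and male cisplatin 4 higher and 1 lower (7.66% and 8.23%). In females the tumour contrast held 1 gene lower and 1 higher (2.56% and 4.14% of all genes). No member was called in females with 5-fluorouracil, paclitaxel or cisplatin against C26 saline, where 1.35%, 0% and 1.66% of all genes were called. At an unadjusted p under 0.05 the counts in these 3 contrasts were 3, 0 and 2 of 10. The shares of all genes just given are for the adjusted p, so these counts cannot be set against them. Since whole muscle was sequenced, fewer fibres of a type and less RNA per fibre cannot be told apart.

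**Figure D1:**
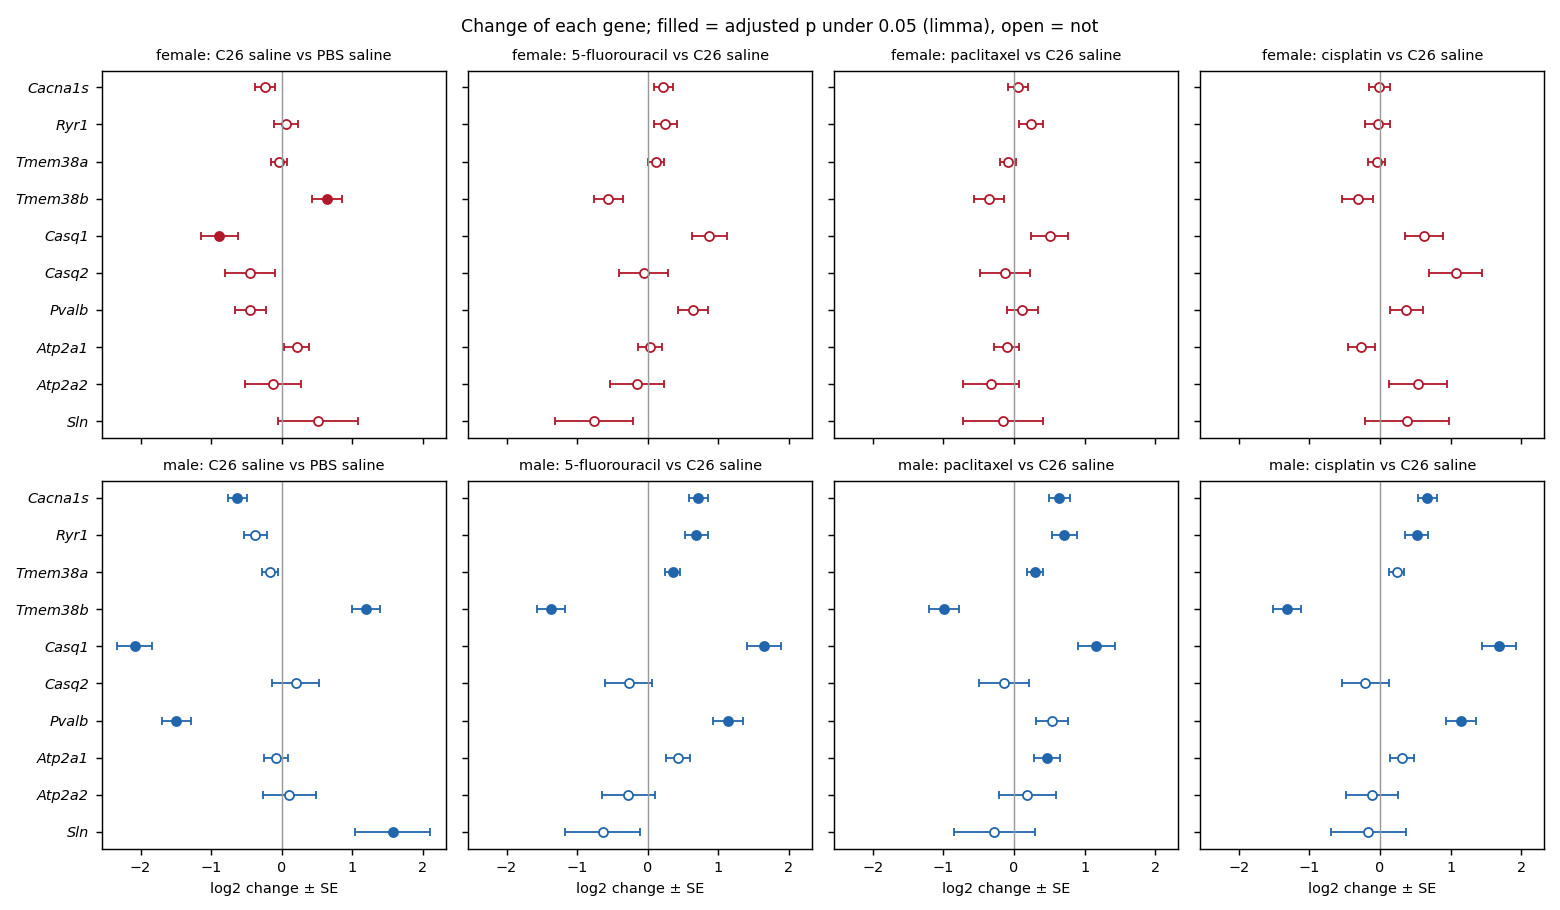
Log2 change (x axis, bars are standard errors) of each of the 10 genes in the tumour contrast and in the 3 drug contrasts against C26 saline, by sex, with filled points called at an adjusted p under 0.05. In males Casq1 lay at -2.08 with the tumour and at 1.65, 1.16 and 1.68 with 5-fluorouracil, paclitaxel and cisplatin, and in females at -0.88, 0.87, 0.51 and 0.62.

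The voltage sensor fell in tumour-bearing males. Cacna1s, which encodes the pore-forming subunit of the dihydropyridine receptor, had values from 9.76 to 10.27 in male PBS muscle (median 9.82) and from 8.77 to 10.13 in male C26 saline muscle (median 9.36). The groups overlapped only through 1 tumour library, and 7 of 8 lay below every PBS value. The change was -0.63 ± 0.13, or 0.646 times (adjusted p = 0.000191). With the drugs Cacna1s ran from 9.82 to 10.28 with 5-fluorouracil, 9.51 to 10.44 with paclitaxel and 9.63 to 10.16 with cisplatin. It was higher than in C26 saline by 0.71 ± 0.13 (adjusted p = 0.000101), 0.64 ± 0.15 (adjusted p = 0.0018) and 0.67 ± 0.13 (adjusted p = 0.000215) in turn. After adjustment for GC slope the paclitaxel change of Cacna1s was 0.39 (adjusted p = 0.0758). In females the tumour change of Cacna1s was -0.24 ± 0.14 (adjusted p = 0.381), with overlapping groups.

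Ryr1, the calcium release channel itself, was not called with the tumour in either sex and was higher with each drug in males. Its values ran from 11.54 to 12.22 in male PBS (median 11.84) and from 10.93 to 12.14 in male C26 saline (median 11.40). Although 6 of 8 tumour libraries lay below every PBS value, the change was -0.37 ± 0.16 (adjusted p = 0.0759). Without replicate 4 of male C26 saline it was -0.47 (adjusted p = 0.021). Medians of 12.04, 12.24 and 12.04 with 5-fluorouracil, paclitaxel and cisplatin stood 0.69 ± 0.16 (adjusted p = 0.00145), 0.71 ± 0.17 (adjusted p = 0.00281) and 0.52 ± 0.16 (adjusted p = 0.0187) above C26 saline in the differences of means. The male rises of Ryr1 depended on the processing. Adjusted for GC slope, the paclitaxel change of Ryr1 was 0.32 (adjusted p = 0.168), and without the libraries of high slope the 5-fluorouracil change was 0.38 (adjusted p = 0.0608) and the paclitaxel change 0.43 (adjusted p = 0.159). The cisplatin call of Ryr1 was lost with quantile normalization (0.32, adjusted p = 0.267), with only the groups compared (adjusted p = 0.122), and without C26 saline replicate 1 or cisplatin replicate 8 (adjusted p up to 0.0654). In females Ryr1 differed by 0.06 ± 0.17 with the tumour (adjusted p = 0.907).

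The TRIC channels differed from each other. Tmem38a, the abundant form in skeletal muscle, had a tumour change of -0.17 ± 0.11 in males (adjusted p = 0.266) and -0.03 ± 0.12 in females (adjusted p = 0.917). It was higher with 5-fluorouracil (0.35 ± 0.11, adjusted p = 0.0136) and paclitaxel (0.30 ± 0.12, adjusted p = 0.0405) in males, and both calls were lost after adjustment for GC slope (adjusted p = 0.0685 and 0.853). The paclitaxel call of Tmem38a was also lost when any of 7 of the 14 libraries was left out (adjusted p up to 0.183). With cisplatin its change was 0.24 ± 0.11 (adjusted p = 0.125), or 0.30 without C26 saline replicate 4 (adjusted p = 0.039). Tmem38b, the form found in most tissues, was called in more contrasts.

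Tmem38b values were 5.49 to 6.19 in male PBS (median 5.80) and 5.77 to 7.87 in male C26 saline (median 7.09). Of the tumour libraries 7 of 8 were above every PBS value, and the exception was replicate 4 at 5.77. Tmem38b rose by 1.19 ± 0.20, or 2.29-fold (adjusted p = 2.93e-06). It then lay between 5.31 and 6.06 with 5-fluorouracil, 5.36 and 6.71 with paclitaxel, and 4.86 and 6.24 with cisplatin, which placed 6 of 8, 3 of 6 and 4 of 8 libraries below every C26 saline value. The changes against C26 saline were -1.37 ± 0.20 (adjusted p = 3.12e-06), -0.997 ± 0.213 (adjusted p = 0.00123) and -1.31 ± 0.20 (adjusted p = 3.53e-06). In females Tmem38b ranged from 5.58 to 6.17 in PBS and from 5.87 to 7.29 in C26 saline, where 5 of 7 tumour libraries were above every PBS value. The female change was 0.64 ± 0.21 (adjusted p = 0.0488), and this call was lost when any of 10 of the 14 libraries was left out (adjusted p up to 0.207) or with quantile normalization (0.61, adjusted p = 0.0738).

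Casq1, the calsequestrin of fast fibres and the main calcium binder inside their store, had the largest change among the 10 genes in tumour-bearing males. Its values were 11.52 to 12.05 in male PBS (median 11.83) and 8.56 to 11.51 in male C26 saline (median 9.75), so the groups did not overlap. The highest tumour value, 11.51, was that of replicate 4, and the next was 10.11. Casq1 fell by 2.08 ± 0.24 on the log2 scale, to 0.236 times the PBS level (adjusted p = 1.28e-09), and without replicate 4 the change was -2.34 ± 0.22 (adjusted p = 3.14e-12).

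Male drug groups had Casq1 medians between those of C26 saline and PBS. Values ran from 10.66 to 11.71 with 5-fluorouracil (median 11.52), 9.46 to 11.98 with paclitaxel (median 10.91) and 11.05 to 11.86 with cisplatin (median 11.41). Paclitaxel libraries were the most spread, with an SD of 0.865 against 0.359 and 0.323. The rises over C26 saline were 1.65 ± 0.24 (adjusted p = 4.16e-06), 1.16 ± 0.26 (adjusted p = 0.00186) and 1.68 ± 0.24 (adjusted p = 2.65e-06). When only the groups compared were fitted, the paclitaxel change kept its size but not its call (adjusted p = 0.058).

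Casq1 also fell in tumour-bearing females. Its values were 11.27 to 11.67 in female PBS (median 11.43) and 9.62 to 11.27 in female C26 saline (median 10.82), and 6 of 7 tumour libraries lay below every PBS value. The change was -0.88 ± 0.26, or 0.543 times (adjusted p = 0.0264). It lost its call when any of 5 libraries was left out, namely PBS saline replicates 4 and 5 and C26 saline replicates 1, 3 and 6, with the smallest change at -0.72 (adjusted p = 0.12). Medians in the female drug groups were 11.55 with 5-fluorouracil, 11.19 with paclitaxel and 11.26 with cisplatin. The changes against C26 saline were 0.87 ± 0.25 (adjusted p = 0.0639), 0.51 ± 0.26 (adjusted p = 0.813) and 0.62 ± 0.27 (adjusted p = 0.216). The 5-fluorouracil change of Casq1 in females was 0.875 after adjustment for GC slope (adjusted p = 0.0371) and 0.86 with quality weights (adjusted p = 0.00305).

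**Figure D2:**
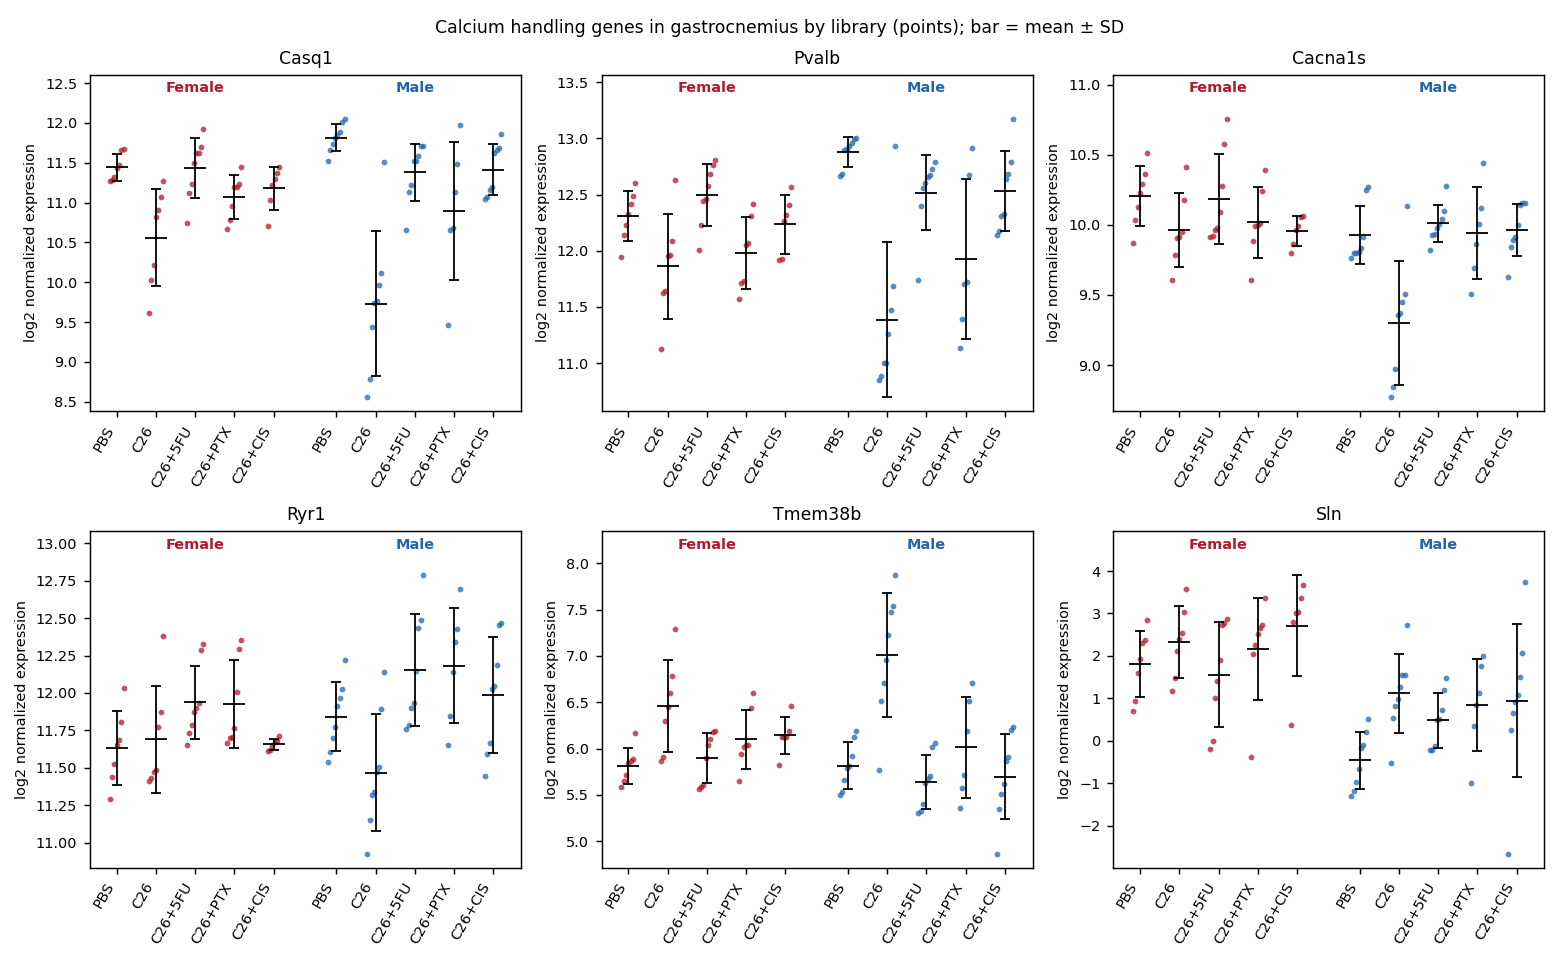
Deposited log2 expression (y axis) of Casq1, Pvalb, Cacna1s, Ryr1, Tmem38b and Sln in the 5 arms (x axis), females in red and males in blue, with 1 point per library and bars for the mean ± SD. In males the 8 C26 saline points of Casq1 lay between 8.56 and 11.51 and the 8 PBS points between 11.52 and 12.05, while Tmem38b had 7 of 8 C26 saline points above every PBS point.

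Casq2, the calsequestrin of heart and slow fibres, was far lower in this muscle and was called in no contrast between arms in the fit of all groups. Its male medians were 4.31 in PBS, 4.46 in C26 saline, and 4.25, 4.09 and 4.18 with the 3 drugs, and the male tumour change was 0.20 ± 0.33 (adjusted p = 0.718). In females all 6 cisplatin values (5.28 to 6.21) lay above all 7 C26 saline values (3.78 to 5.27). That change of Casq2, 1.07 ± 0.37, had an adjusted p of 0.116 in the fit of all groups and of 0.0259 in the fit of the compared groups alone. The slow fibre markers had a median change of 0.59 in the same contrast, with 0 of 9 called, and with their summed level as a covariate the change was 0.69 (adjusted p = 0.0942).

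Pvalb, the parvalbumin gene of fast fibres, also fell in tumour-bearing males. Its values were 12.67 to 13.00 in male PBS (median 12.92) and 10.85 to 12.93 in male C26 saline (median 11.13). Only replicate 4, at 12.93, reached the PBS range, and the next tumour value was 11.68. Pvalb changed by -1.495 ± 0.207, to 0.355 times (adjusted p = 7.13e-08), and by -1.72 without replicate 4 (adjusted p = 9.3e-11). Against C26 saline, Pvalb in males rose with 5-fluorouracil by 1.13 ± 0.21 (adjusted p = 6.38e-05) and with cisplatin by 1.14 ± 0.21 (adjusted p = 4.96e-05). With paclitaxel the change was 0.54 ± 0.22 (adjusted p = 0.0547), and without replicate 4 of C26 saline it was 0.76 (adjusted p = 0.00369). In females the tumour change was -0.44 ± 0.22 (adjusted p = 0.26), with values of 11.94 to 12.60 in PBS and 11.12 to 12.63 in C26 saline.

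The fast-fibre pump was not called with the tumour in either sex. Atp2a1 was the most abundant of the 10 genes, with male medians of 15.31 in PBS, 15.26 in C26 saline, and 15.65, 15.81 and 15.59 with 5-fluorouracil, paclitaxel and cisplatin. Its tumour change was -0.09 ± 0.17 in males (adjusted p = 0.76) and 0.21 ± 0.18 in females (adjusted p = 0.606), and the male value turned to 0.32 with quantile normalization (adjusted p = 0.0108). With paclitaxel Atp2a1 was higher than in C26 saline by 0.47 ± 0.18 (adjusted p = 0.0438), and this call depended on how the libraries were processed. The change was 0.06 after adjustment for GC slope (adjusted p = 0.859), 0.03 without the libraries of high slope (adjusted p = 0.958) and -0.06 with quantile normalization (adjusted p = 0.712), and the call was lost when any of 9 of the 14 libraries was left out. With 5-fluorouracil the male change of Atp2a1 was 0.42 ± 0.17 (adjusted p = 0.0614), or 0.50 without C26 saline replicate 4 (adjusted p = 0.0224).

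Atp2a2, the slow-fibre pump, was called in no contrast in the same fit. Its values spread widely within every group, for example from 6.28 to 9.45 in male C26 saline and from 7.31 to 8.87 in male PBS, and the male tumour change was 0.11 ± 0.37 (adjusted p = 0.87).

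Sln, the pump regulator, rose with the tumour in males from its low level. Values were -1.29 to 0.51 in male PBS (median -0.42) and -0.52 to 2.74 in male C26 saline (median 1.13), and 7 of 8 tumour libraries lay above every PBS value. The medians of the linear values were 0.759 and 2.20. The change was 1.57 ± 0.53, or 2.98-fold (adjusted p = 0.0204), and it had an adjusted p of 0.058 without C26 saline replicate 8, whose value was the highest. With a pseudocount of 1 on the linear scale the change of Sln was 0.90 (adjusted p = 0.0495). With the summed slow fibre markers as a covariate the change of Sln was 1.65 ± 0.40 (adjusted p = 0.000955). Against C26 saline, Sln was not called with any drug in males (-0.64 ± 0.53, -0.28 ± 0.57 and -0.17 ± 0.53, adjusted p = 0.386, 0.74 and 0.87), and the cisplatin group had the widest range, -2.66 to 3.74. The female tumour change of Sln was 0.52 ± 0.57 (adjusted p = 0.705), from a PBS median of 1.92.

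Immune markers also differed between the arms. Between male PBS and C26 saline 7 of 7 neutrophil and 8 of 10 macrophage markers rose, where 13.1% of all genes were called higher. The neutrophil markers were scarce, with mean log2 values of -2.54 to 0.89 over all libraries. The summed linear neutrophil level had medians of 2.59 and 27.4 (ranges 1.43 to 12.3 and 10.2 to 33.2). The summed linear macrophage level had medians of 61.1 and 126 (ranges 43.3 to 75.5 and 68.1 to 192). The lowest tumour values, 10.2 and 68.1, were those of replicate 4, the library with the highest Casq1, Pvalb and Cacna1s of its group and the lowest Sln and Tmem38b. Of 14 muscle fibre markers 4 fell and 1 rose in this contrast, where 13.0% of all genes fell and 13.1% rose. Against C26 saline in males, 7 of 7 neutrophil markers fell with 5-fluorouracil and with cisplatin (median sums 4.02 and 5.27). Of 10 macrophage markers 4 and 3 fell (median sums 96.4 and 80.3), where 12.0% and 8.23% of all genes were called lower. With paclitaxel 0 of 7 and 1 of 10 fell, where 18.5% of all genes were called lower, and the median sums were 15.2 and 135. The part of these cells in the changes above was not tested.

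Against tumour-free muscle, the male paclitaxel arm had 2 of the 10 genes lower, where 20.6% of all genes were called lower and 16.9% higher. These were Casq1 (-0.92 ± 0.26, adjusted p = 0.00678) and Pvalb (-0.95 ± 0.22, adjusted p = 0.00143). Neither was called without the libraries of high GC slope, which leaves 2 male paclitaxel libraries, where Casq1 stood at -0.46 (adjusted p = 0.682) and Pvalb at -0.71 (adjusted p = 0.417). Casq1 was also not called without male paclitaxel replicate 3 (-0.63, adjusted p = 0.0601). No gene of the 10 was called against PBS with 5-fluorouracil or cisplatin in males (4.76% and 0.902% of all genes), where Casq1 stood at -0.43 ± 0.24 (adjusted p = 0.232) and -0.40 ± 0.24 (adjusted p = 0.555). Sln in male cisplatin muscle was 1.41 ± 0.53 above PBS (adjusted p = 0.218), and 1.92 without cisplatin replicate 5 (adjusted p = 0.0445). The female 5-fluorouracil, paclitaxel and cisplatin arms held no called member against PBS (0.383%, 4.58% and 0.209% of all genes).

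The tumour and drug changes were then tested for a difference between the sexes. For the tumour contrast the male change minus the female change was -1.20 ± 0.36 for Casq1 (adjusted p = 0.24) and -1.05 ± 0.30 for Pvalb (adjusted p = 0.222), and no member was called, where 0.0361% of all genes were. For the 5-fluorouracil, paclitaxel and cisplatin contrasts no member was called (0% of all genes in each). The unadjusted p was under 0.05 for 3, 3, 4 and 7 of the 10 genes in the 4 sex comparisons, and quality weights called 2, 2, 5 and 4. The shares of all genes above are for the adjusted p without weights, so these counts cannot be set against them. Without male C26 saline replicate 4, in the fit without weights, the sex difference in the tumour change was called for Casq1 (-1.45, adjusted p = 0.0163) and Pvalb (-1.27, adjusted p = 0.0102). Without it the sex difference in the cisplatin change was called for Casq1 (1.31, adjusted p = 0.0353), Cacna1s (0.80, adjusted p = 0.0246) and Tmem38b (-1.17, adjusted p = 0.0246), and no member was called for 5-fluorouracil or paclitaxel.

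The balance of the 2 calsequestrins and that of Sln and its pump shifted in tumour-bearing males. Casq2 and Atp2a1 were not themselves called there, so these shifts are not independent of the Casq1 and Sln calls above. Within a library, Casq2 minus Casq1 averaged -7.59 ± 0.46 (SD, n = 8) in male PBS and -5.31 ± 1.39 (n = 8) in male C26 saline. The difference of 2.28 had an exact two-sided permutation p of 0.00186 and an adjusted p of 0.0448 over the 24 comparisons of this kind. Sln minus Atp2a1 rose from -15.84 ± 0.75 to -14.18 ± 1.15, a difference of 1.66 (exact permutation p = 0.00404, adjusted p = 0.0485), or 0.98 with a pseudocount of 1 (adjusted p = 0.0457). Both were higher than the PBS mean in 7 of 8 tumour libraries, and both calls were lost when any of 14 of the 16 libraries was left out (adjusted p up to 0.0783 and 0.0979). Atp2a2 minus Atp2a1 differed by 0.19 in the same contrast (exact permutation p = 0.702, adjusted p = 0.732).

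Against C26 saline in males, Casq2 minus Casq1 was lower by 1.92 with 5-fluorouracil (log2 difference -1.92, exact permutation p = 0.00637, adjusted p = 0.051) and by 1.89 with cisplatin (log2 difference -1.89, exact permutation p = 0.00855, adjusted p = 0.0513). In each of these arms 8 of 8 libraries lay below the C26 saline mean. The groups overlapped, as C26 saline ran from -8.30 to -4.13, and its lowest value was that of replicate 4. With paclitaxel the male difference was -1.31 (exact permutation p = 0.107, adjusted p = 0.343). In females no within-library difference passed, and the smallest adjusted p was 0.343.

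**Figure D3:**
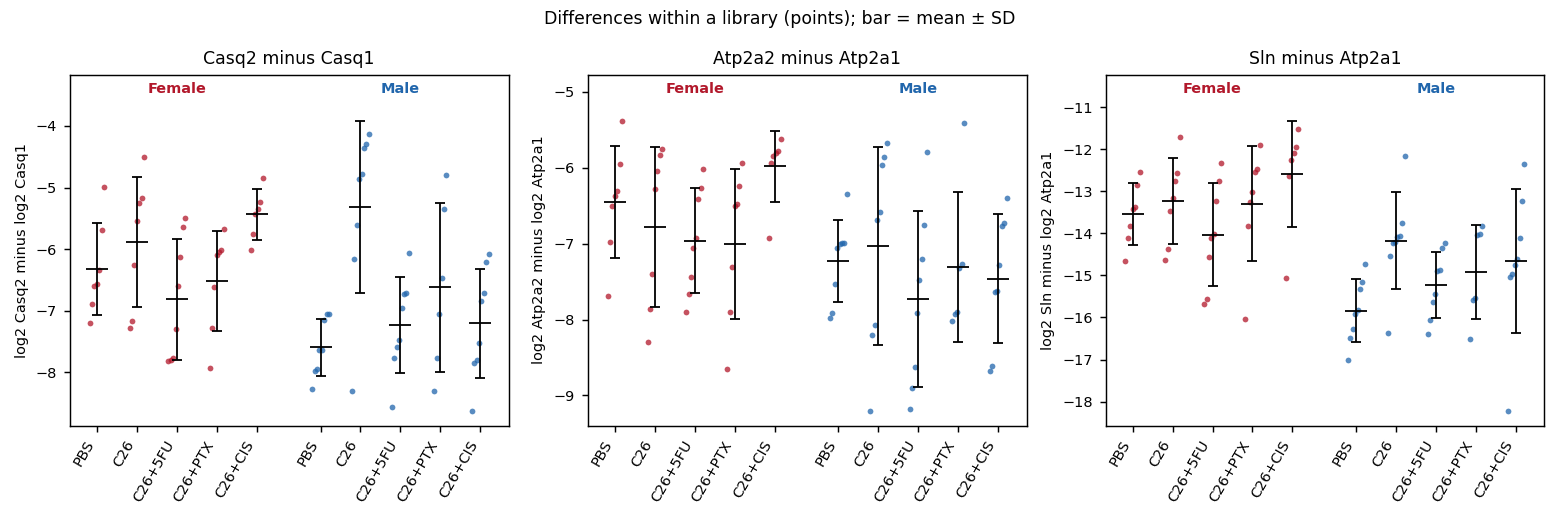
Within-library log2 differences (y axis) of Casq2 minus Casq1, Atp2a2 minus Atp2a1 and Sln minus Atp2a1 in the 5 arms (x axis), females in red and males in blue, 1 point per library. Male Casq2 minus Casq1 averaged -7.59 in PBS and -5.31 in C26 saline, and Atp2a2 minus Atp2a1 averaged -7.23 and -7.03.

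Within arms, the slow-fibre members varied with how much slow muscle RNA a library held. The summed level of 9 slow fibre genes (Myh7, Myl2, Myl3, Tnnt1, Tnni1, Tnnc1, Myh7b, Myoz2 and Tpm3) spanned 218 to 3010 in linear values among the 8 male C26 saline libraries alone. After each group's mean was removed, Atp2a2 correlated with the log2 of this sum at Pearson r = 0.953 and Spearman rho = 0.951 over 73 libraries, and in all 10 groups the correlation was positive (0.893 to 0.992). Casq2 gave r = 0.776 and rho = 0.767 (groups 0.576 to 0.906) and Sln r = 0.670 and rho = 0.596 (groups 0.342 to 0.941). For these 3 genes the permutation p within groups was 1e-05, the smallest that the permutations can give, and the adjusted p over 10 genes was 3.33e-05. Without the 2 libraries farthest from the median, r was 0.946, 0.748 and 0.684.

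Pvalb and Ryr1 leaned the other way, and so did Casq1 and Atp2a1 by rank. Cacna1s, Tmem38a and Tmem38b had no called relation (r = 0.008, -0.001 and 0.111, permutation adjusted p = 0.992, 0.992 and 0.545). Pvalb had r = -0.387 and rho = -0.459 (permutation p = 0.00344 and 0.00025, adjusted p = 0.0086 and 0.000625), and r = -0.406 without the 2 extreme libraries. Ryr1 had r = -0.330 and rho = -0.420 (permutation p = 0.0141 and 0.00095, adjusted p = 0.0282 and 0.0019), and r = -0.353 without the 2 extreme libraries. Casq1, with r = -0.238 and rho = -0.277 (permutation p = 0.086 and 0.0326, adjusted p = 0.123 and 0.0466), passed by rank alone, as did Atp2a1 with r = -0.237 and rho = -0.287 (permutation p = 0.0763 and 0.0247, adjusted p = 0.123 and 0.0412). Without the 2 extreme libraries their r was -0.281 and -0.207. With the slow sum as a covariate the male tumour change of Casq1 was -2.09 ± 0.24 (adjusted p = 6.51e-10) and that of Pvalb -1.51 ± 0.19 (adjusted p = 9.3e-09), and 0 of 9 slow fibre genes were called in that contrast.

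**Figure D4:**
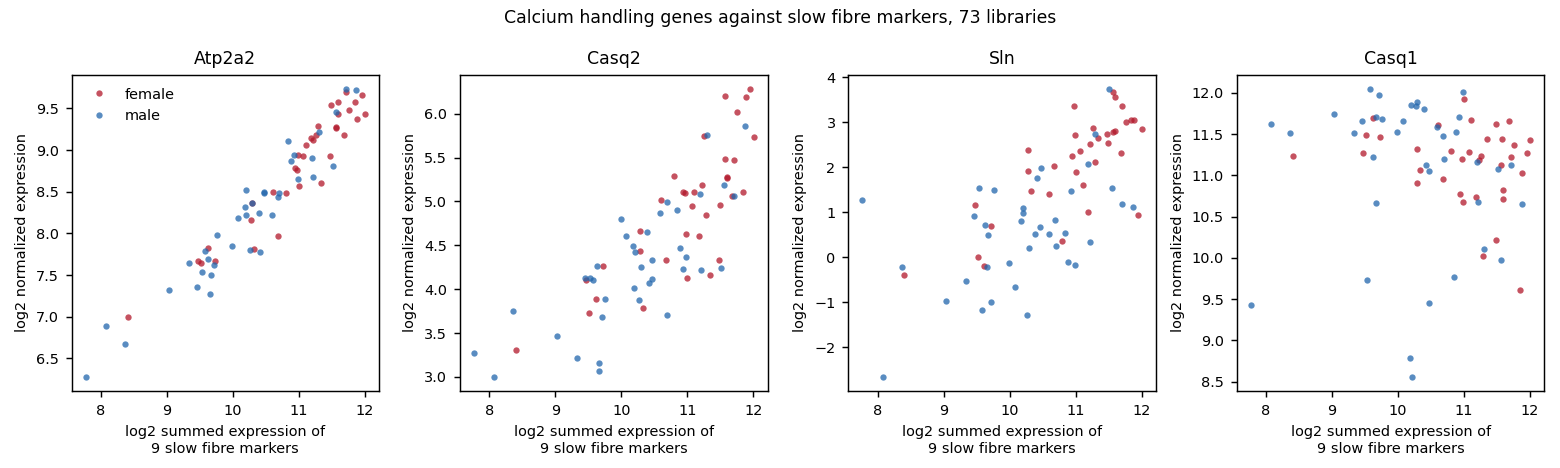
Log2 expression (y axis) of Atp2a2, Casq2, Sln and Casq1 against the log2 of the summed 9 slow fibre markers (x axis), 1 point per library, 73 libraries, females in red and males in blue. Atp2a2 follows the sum closely (group-centred r = 0.953), while Casq1 has low points along the whole axis (r = -0.238).

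Among the members themselves, over the 73 libraries, the highest correlations were 0.920 between Casq1 and Pvalb, 0.876 between Atp2a1 and Ryr1, 0.853 between Atp2a1 and Tmem38a and 0.833 between Casq2 and Atp2a2. The lowest was -0.850, between Casq1 and Tmem38b. These correlations are over libraries that differ in arm, depth and GC slope, and group means were not removed. The most alike genes were sought among all genes with a symbol and a mean log2 of at least 1. Those whose levels were most like Casq1 were Slc37a4, the glucose-6-phosphate transporter (r = 0.970, or 0.948 within groups), Sypl2, which encodes a triad junction protein (0.959 and 0.911), and Pgm1 (0.943 and 0.919). For Pvalb they were Tpm1, the fast tropomyosin gene (0.954 and 0.933), the fast myosin light chain Myl1 (0.937 and 0.937) and Sh3bgr (0.936 and 0.897). Atp2a2 was most like Tpm3, Tnnc1 and Tnnt1, which encode slow thin filament proteins (0.98, 0.958 and 0.948), and Sln most like Ankrd2, Hspb6 and Myl2 (0.744, 0.703 and 0.696).

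Calcium handling genes beyond the 10 were counted in the same contrasts. All 68 genes of a list of other calcium channels, junction proteins, exchangers, pumps, calmodulins and kinases were measured. With the tumour 22 of 68 fell and 3 rose in males, where 13.0% of all genes fell and 13.1% rose (median -0.20, against 0.00 over all genes). In females 4 fell and 2 rose, where 2.56% of all genes fell and 4.14% rose (median -0.09, against -0.01). Against C26 saline in males 23 rose and 2 fell with 5-fluorouracil (median 0.17), 24 and 6 with paclitaxel (0.19) and 19 and 4 with cisplatin (0.19), while the medians over all genes were -0.03, -0.01 and -0.04. The shares of all genes that rose and fell were 11.3% and 12.0% with 5-fluorouracil, 13.5% and 18.5% with paclitaxel, and 7.66% and 8.23% with cisplatin. In females the only call among the 68 in the 3 drug contrasts was Orai2 with 5-fluorouracil.

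The genes named from this list are those with the smallest adjusted p in each contrast. Sypl2, which encodes mitsugumin 29, a protein of the junction between tubule and store, averaged 9.22 in male PBS and 7.57 in male C26 saline, a change of -1.65 ± 0.22 (adjusted p = 1.82e-08), and it also fell in females (-0.73 ± 0.23, adjusted p = 0.0405). Against C26 saline in males Sypl2 rose by 1.29 with 5-fluorouracil, 1.04 with paclitaxel and 1.44 with cisplatin (adjusted p = 1.56e-05, 0.00171 and 3.53e-06). The junctophilin gene Jph2, which tethers the tubule to the store, went from 9.91 to 8.60 with the tumour in males (-1.30 ± 0.22, adjusted p = 4.96e-06) and rose with 5-fluorouracil by 1.26 and paclitaxel by 1.29 (adjusted p = 3.69e-05 and 0.000424).

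Genes of calcium exchange and signalling were called as well. Slc8a3, a sodium-calcium exchanger, fell in tumour-bearing males by 1.06 (log2 change -1.06 ± 0.17, adjusted p = 1.04e-06), and the calmodulin-dependent kinase gene Camk2a by 0.99 (log2 change -0.99 ± 0.16, adjusted p = 1.15e-06). Camk2a was higher with 5-fluorouracil, paclitaxel and cisplatin by 0.95, 0.82 and 1.01 (adjusted p = 1.35e-05, 0.000828 and 5.26e-06). Of the calmodulin genes, which encode the same protein, Calm2 fell in females (-0.71 ± 0.18, adjusted p = 0.00889) and in males (-1.02 ± 0.17, adjusted p = 4e-06). Calm3 rose with the drugs in males by 1.13, 0.99 and 1.03 (adjusted p = 1.39e-05, 0.000717 and 5.43e-05). Slc8a3 was higher with cisplatin than with C26 saline in males by 1.02 (adjusted p = 1.3e-05), and Atp2b3, a plasma membrane calcium pump, with paclitaxel by 0.74 (adjusted p = 0.00151). Stim1, the store calcium sensor, fell in females by 0.33 (log2 change -0.33 ± 0.10, adjusted p = 0.0233).

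Orai2, a channel of store-operated entry that immune cells also express, went the other way. It rose with the tumour from -0.25 to 1.35 in males (1.60 ± 0.22, adjusted p = 9.12e-08) and from 0.24 to 1.56 in females (1.32 ± 0.24, adjusted p = 9.56e-05), and in females it was lower with 5-fluorouracil than with C26 saline (-0.92 ± 0.23, adjusted p = 0.0238). In that female contrast 6 of 7 neutrophil and 5 of 10 macrophage markers fell, where 1.35% of all genes were called in either direction. In the female tumour contrast 6 of 7 and 6 of 10 of these markers rose, where 4.14% of all genes were called higher. The part of immune cells in the change of Orai2 was not tested.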

How the data were processed

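The deposited table holds log2 expression per gene and library, as the authors made it. Its values have the form of log2 CPM (an estimated count plus 0.5 over a scaled library size): taken back to counts, 83.4% to 91.1% of values below 100 per library came out whole within 0.02. Per the submitters' processing notes, the tools were Salmon, fastp, FastQC, MultiQC, limma and edgeR, on build mm39 (GRCm39), with no version or role given. Reads were paired, 150 bases each, per the labels' protocols. Raw counts were not used here, so no count test was run.

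limma 3.58.1 in R 4.3.3 fitted 1 mean per group to all 13856 genes and 73 libraries (63 residual degrees of freedom, empirical Bayes with a trend), with Benjamini-Hochberg adjustment over all genes in each of 19 comparisons. The library with contradictory labels (1 column of values) was not used. The labels number the libraries of a group as separate samples, and nothing ties a library to a named animal, so a p-value here reflects only the scatter among these libraries, which may be technical. Within-library differences were compared by exact two-sided permutation tests, and relations to slow fibre content by 100000 permutations within groups (Python 3.11.15, scipy 1.17.1). Transcript GC content and length came from GENCODE annotation, matched for 99.5% of genes by gene ID, and promoters from RefSeq (GRCm38.p6), whose build is older than the authors', so coordinates hold for GRCm38 only. The fit was tested on simulated data.

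The 10 genes, the gene lists and the tests were chosen with earlier results of these data known. The rule for names took all 10 genes, up to 4 called genes of the list of 68 with the smallest adjusted p per main comparison, and the 3 genes most correlated with Casq1, Pvalb, Atp2a2 and Sln. Values of these genes in further comparisons were added after they had been seen. Alternatives were quantile normalization, a mean log2 of at least 1, a pseudocount of 1, quality weights, the replicate number as a block, only the groups compared, and each library left out. After the data were seen, the GC slope as a covariate, a fit without libraries of high GC slope and the slow fibre sum as a covariate were added. Same-numbered libraries deviated together in every pair only for female paclitaxel against C26 saline (7 pairs, r 0.156 to 0.800), where the fit with and without the block called 0 of the 10 genes.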

Additional observations from a re-analysis of the deposited data

Results flagged for a closer look

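In 7 of 100 checks of a gene within a group, 1 library lay apart from the rest of its group by more than the 95% limit of Dixon's test, where chance gives about 1 in 20. Pvalb in male C26 saline replicate 4 was 12.93, against 11.68 for the next. Casq2 was highest in male paclitaxel replicate 6, at 5.86 against 4.22. Pvalb was lowest in male 5-fluorouracil replicate 7, at 11.74 against 12.40. Atp2a1 was highest in female C26 saline replicate 7, at 16.11 against 15.62. Sln was lowest in female paclitaxel replicate 1, at -0.39 against 2.04, and in female cisplatin replicate 1, at 0.36 against 2.80. Atp2a2 was also lowest in that cisplatin library, at 8.49 against 9.27.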

How the results depend on the processing

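The number of the 10 genes called changed by more than 1.5 times as follows. For the female tumour contrast (2 genes) it was 1 with quantile normalization and 1 with a mean log2 of at least 1. For female 5-fluorouracil (0) it was 2 with quality weights and 1 with the GC slope as a covariate. For female cisplatin (0) it was 2 with quality weights and 1 with only the groups compared. For male paclitaxel against C26 saline (6) it was 3 with only the groups compared, 2 with the GC slope and 3 without libraries of high slope. Against PBS, quality weights gave 1 in female paclitaxel, 1 in female cisplatin and 4 in male paclitaxel (2), which had 0 without libraries of high slope. The sex comparisons (0) had 2, 2, 5 and 4 with quality weights. Male against female PBS (1) had 3 with quality weights, 4 with only the groups compared and 0 without libraries of high slope. With quality weights 25 results of a gene in a comparison gained a call, and 165 were unchanged. The share of all genes called under each setting is not given here. These counts, and those with 1 library left out below, therefore cannot be set against a share of all genes.

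Leaving out 1 library at a time gave 0 to 2 genes for the female tumour contrast, 0 to 1 for female 5-fluorouracil, 4 to 6 for the male tumour, 6 to 7, 4 to 7 and 4 to 6 for male 5-fluorouracil, paclitaxel and cisplatin, 1 to 4 and 0 to 1 for male paclitaxel and cisplatin against PBS, and 0 to 2 and 0 to 3 for the sex difference in the tumour and cisplatin contrasts. Casq2 minus Casq1 ran from 2.11 to 2.70 in the male tumour contrast, from -2.35 to -1.73 with 5-fluorouracil and from -2.32 to -1.69 with cisplatin, and Sln minus Atp2a1 from 1.37 to 1.97 and, with 5-fluorouracil, from -1.37 to -0.77.

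Sln minus Atp2a1 in the male tumour contrast was 0.98 with a pseudocount of 1, 1.30 with quantile normalization (adjusted p = 0.0597, exact permutation test) and 1.47 without libraries of high slope (adjusted p = 0.16), and Casq2 minus Casq1 was 2.21 there (adjusted p = 0.152). With a pseudocount of 1, Casq2 minus Casq1 was called with 5-fluorouracil (-1.91) and cisplatin (-1.88, adjusted p = 0.0457 for both). Atp2a1 reversed with quantile normalization, to 0.32 in the male tumour contrast and -0.055 with male paclitaxel. The cause was not tested.

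The replicate numbers as a block changed 1 call of a gene, Ryr1 in male paclitaxel against PBS (0.41, adjusted p = 0.0342), and gave 3 genes there against 2 without the block. Elsewhere some same-numbered libraries deviated apart (lowest r -0.503). The slow fibre covariate changed 1 call, Pvalb with male paclitaxel (0.65, adjusted p = 0.0184). Sln, with linear values of 0.408 to 1.43 in male PBS, is the gene that depth limits most.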
